A study of Mus musculus with 24 samples.

Results

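The last days of gestation in the mouse lacrimal gland (LG), the gland that secretes the aqueous part of tears, were described by setting E19.5 LG against E17.5 LG. Poly-A RNA of whole C57BL/6 glands at the embryo stage was sequenced in 3 libraries at E17.5 and 3 at E19.5 (embryonic days). The animals carried no transgene or treatment in the labels, and the number, pooling and sex of the embryos behind each library were not stated, so p-values measure the spread between these libraries. The comparison took every gene whose FPKM, a count of fragments scaled to exon length and library size, averaged 0.5 or more across these libraries, and 17311 of the 63862 listed genes and assembled loci did so.

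The LG forms from a bud of conjunctival epithelium that branches into mesenchyme under FGF10, and late in gestation its end buds and ducts begin to turn into secretory acini, ducts and contractile myoepithelial cells. Bulk RNA holds all of these cells together with vessels, nerves, blood and immune cells. A lower value can therefore come from fewer cells of a type or from less RNA per cell, and these cannot be told apart here.

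The 6 libraries held between 7558403 and 9257025 reads, recovered from the steps in the FPKM values. Pearson correlations across genes on log2(FPKM + 1) were 0.971 to 0.977 within E17.5, 0.973 to 0.979 within E19.5 and 0.946 to 0.961 between the stages. The first principal component took 48.0% of the variance and separated the stages, and E17.5 replicate 3 lay nearest to E19.5 on it. The summed FPKM ran from 348261 to 356538 at E17.5 and from 376838 to 463179 at E19.5. Several genes that every cell uses, including Gapdh and Rpl8, and the epithelial genes Krt8 and Epcam were listed at 0 in all 6 libraries, and 4536 of 21819 protein coding genes were listed at 0, so a value of 0 was not read as lack of expression. Why they were listed at 0 was not tested. The LG label was checked against epithelial and developmental genes that were listed, and Barx2, a homeobox factor of LG branching, stood at 214, 248 and 256 FPKM at E17.5 and 211, 185 and 228 FPKM at E19.5.

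At E19.5, secreted products of the gland, interferon response genes, chemokines and macrophage markers were higher. Embryonic globins, the cartilage collagen gene Col2a1 and a group of fetal growth genes were lower. By limma on log2(FPKM + 1) with Benjamini-Hochberg adjustment at 0.05, 2144 genes were called, which is 12.4% of those tested. Of these, 1335 were higher at E19.5 (7.71%) and 809 were lower (4.67%). A change of at least 1 on the log2 scale was seen in 386 of the higher and 132 of the lower genes. The median log2 fold change of all genes was 0.02. The share of called genes that were higher was 62.3%, but limma-voom on recovered reads called 1128 higher and 1681 lower, or 40.2% higher, and moved the median of all genes by -0.10. That fit changed the model and the genes tested (13876) as well as the scaling, and median-of-ratios scaling alone gave 1166 higher and 917 lower, or 56.0% higher. Which of these changes turned the balance was not tested. Counts of list members from limma-voom given below stand against its 1128 higher and 1681 lower of 13876 genes. All 2144 called genes kept their sign when any 1 library was left out, which choosing them by the fit on the same libraries makes likely. Of the 2144, 434 (338 higher and 96 lower) were called in all 6 such fits. Without E17.5 replicate 3, 1085 were higher and 689 lower.

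**Figure D1:**
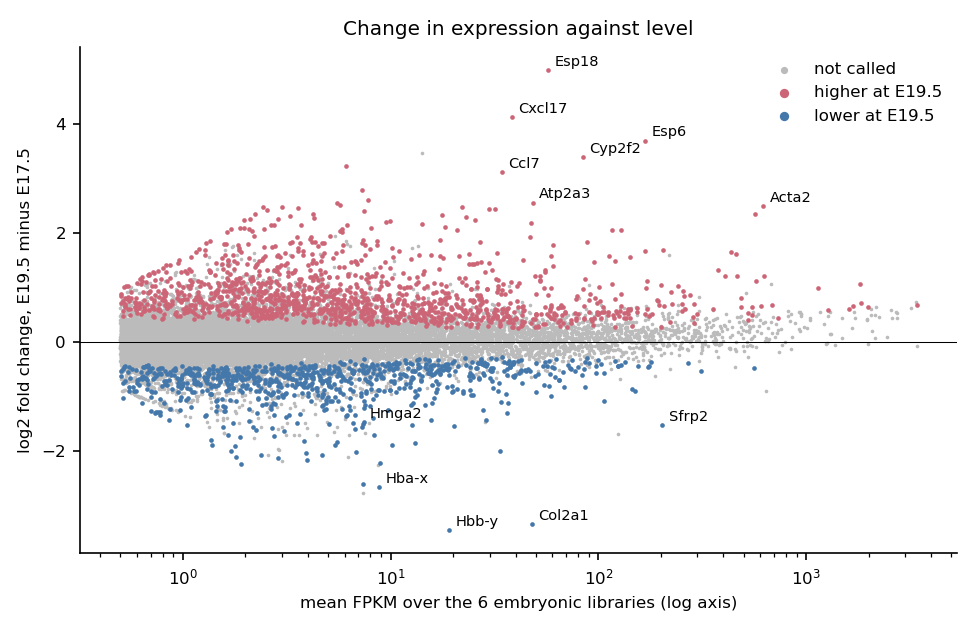
Each point is 1 of the 17311 genes, with its mean FPKM over the 6 libraries on a log axis and its log2 fold change (E19.5 minus E17.5, on log2(FPKM + 1)). Red and blue mark genes called higher and lower at E19.5, and Esp18 (4.98) and Hbb-y (-3.45) lie farthest from 0 among the labelled genes.

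The largest rises were led by gland products. Esp18, an exocrine gland secreted peptide, lies at chr17:39406359-39410992 (plus strand, GRCm38, GENCODE M21). It was 2.45, 1.57 and 3.98 FPKM at E17.5 and 85.3, 123 and 129 FPKM at E19.5, a log2 fold change of 4.98 ± 0.27 (SE, limma adjusted p = 0.00137). The stages did not overlap, which the naming rule asked for and which held for 36.7% of all genes tested. Cxcl17, a mucosal chemokine, was 2.70, 0.954 and 9.36 FPKM and then 66.4, 70.0 and 81.4 FPKM (4.12 ± 0.55). Esp6, a second peptide of the Esp family, was 18.8, 14.8 and 43.3 FPKM and then 265, 310 and 357 FPKM (3.69 ± 0.37). In each of these 3 genes E17.5 replicate 3 was the highest library of its stage.

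Cyp2f2, a cytochrome P450, rose by 3.39 ± 0.38, from 9.77, 9.38 and 27.2 FPKM to 175, 141 and 144 FPKM. Ccl7, a monocyte chemoattractant, rose by 3.11 ± 0.42, and its 3 values at E19.5 were spread, at 36.0, 58.9 and 91.3 FPKM. Pou2f3, the transcription factor that specifies tuft cells, rose by 2.79 ± 0.15, from 0.832, 0.907 and 1.62 FPKM to 13.9, 12.9 and 13.7 FPKM. The remaining genes of the 15 largest rises were the interferon-inducible GTPases Gbp3 and Ifi47, the calcium pump Atp2a3, the smooth muscle actin Acta2, the proton pump subunit Atp6v1b1, Sez6, Ucma, Mir145a and the rRNA entry n-R5s88. Their log2 fold changes lay between 2.43 and 2.60. Of the 15, only n-R5s88 had a mean under 10 reads, at 3.5.

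The 15 largest falls were of another kind. Hbb-y, the embryonic beta globin, fell from 46.9, 49.0 and 12.4 FPKM to 3.61, 1.23 and 1.41 FPKM (-3.45 ± 0.55, limma adjusted p = 0.0153). Col2a1, the main collagen of cartilage, fell from 94.1, 97.9 and 72.7 FPKM to 8.27, 6.84 and 8.41 FPKM (-3.33 ± 0.14, limma adjusted p = 0.00128). Hba-x, the embryonic alpha globin, fell from 18.0, 21.6 and 8.66 FPKM to 1.10, 1.30 and 2.45 FPKM (-2.65 ± 0.35). Again E17.5 replicate 3 lay nearest to E19.5 in all 3 genes. The other 12 were Gm26945, a long noncoding RNA at 4.97 to 9.27 FPKM before and 0.442 to 1.01 FPKM after, and 11 entries on few reads: Mir493, Gm21954, Mir6955, Mir26a-2, Gm25986, Snord35a, Gm23115, Gm27544, Gm23833, Gm23600 and Mir1258. In 9 of these 11 the mean was between 0.833 and 5.5 reads. In simulated libraries the same test called unchanged genes mostly among those on few reads, so these 9 are listed as values and carry no statement. Gm26945, Gm23600 and Mir493 lie near each other on the plus strand of chromosome 12 (109580233 to 109643818). Whether they fell as 1 unit was not tested. With genes of at least 10 reads alone, 1442 of 11336 genes were higher and 979 lower, and the 20 named genes that stayed in that fit kept their calls.

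Among protein coding and long noncoding genes, a list drawn up after the values were seen, the falls went on with genes of nerve and mesenchyme. Nefm, a neurofilament, was 17.01, 15.1 and 8.06 FPKM and then 3.20, 2.64 and 4.03 FPKM (-1.70 ± 0.27). Sfrp2, a secreted Wnt antagonist and among the most abundant of them, was 362, 331 and 219 FPKM and then 114, 89.4 and 107 FPKM (-1.52 ± 0.20). Grm7, Kctd16, Gm13372, Trhde and A730046J19Rik were also lower.

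**Figure D2:**
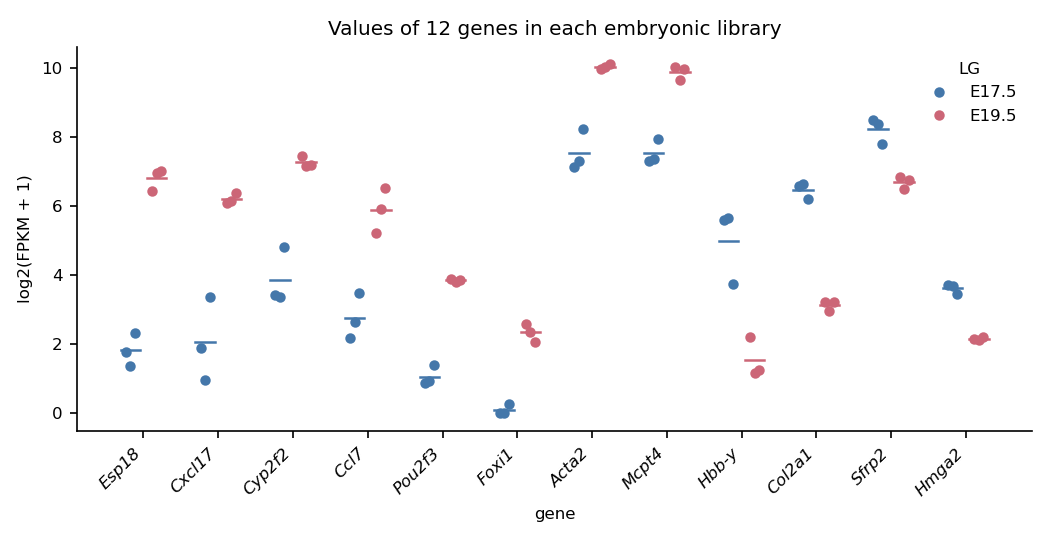
Points are single libraries of 12 genes on the log2(FPKM + 1) scale and bars are stage means. E17.5 replicate 3, the third blue point of each gene, lies toward E19.5 in Cxcl17, Cyp2f2 and Hbb-y. Most of the 12 were named by a rule that asks for stages that do not overlap, so the lack of overlap follows from the choice. It held for 36.7% of all genes tested.

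Most of the tested tear and exocrine products rose. Of 57 symbols in this list, 18 passed the filter on low values and 14 were listed at 0 in all 6 libraries, and of the 18, 11 were called higher and 0 lower, with a median log2 fold change of 1.06 and a range from -1.48 to 4.98. The filter took the mean of both stages, so a gene near 0 at E17.5 could pass through its E19.5 values. With no filter, 9 of 42 members were higher and 0 lower (median 0.13), against 785 higher of 38314 genes. The largest after Esp18 and Esp6 was Esp4, at 0.465, 0.563 and 1.58 FPKM and then 6.83, 8.05 and 8.30 FPKM (2.27 ± 0.23). Agr2, a disulfide isomerase of mucous cells, was 2.39, 2.09 and 4.26 FPKM and then 14.5, 16.4 and 19.8 FPKM (2.22 ± 0.22). Wfdc18 was the most abundant member to rise, from 156, 154 and 338 FPKM to 460, 660 and 834 FPKM (1.65 ± 0.36). The mucin Muc1 rose least of the members called (0.63 ± 0.11). Without E17.5 replicate 2, 6 members were called higher, and without E17.5 replicate 1, 7.

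These products were far from their adult levels. Esp6 stood at 74649, 58508 and 9759 FPKM in the 3 adult LG libraries, and Esp18 at 19566, 14953 and 3941 FPKM. Adult libraries were scaled with 31.3% to 60.4% of reads in their 10 leading genes, against 6.76% to 8.07% in the embryo, so levels across them are given side by side without a test. Scgb2b2 and Mucl2, which stood at 75437 to 871600 FPKM and 171251 to 807362 FPKM in the adult libraries, showed another pattern in the embryo. Scgb2b2 was 45.2, 0.177 and 0 FPKM at E17.5 and 9.17, 15.2 and 11.7 FPKM at E19.5, and Mucl2 was 46.0, 0.164 and 0 FPKM and then 1.09, 0 and 0.202 FPKM. In both, E17.5 replicate 1 stood above every other embryonic library, and neither was called with all 6 libraries. Without that library Scgb2b2 was called higher (3.56 ± 0.22, limma adjusted p = 0.0102), and Mucl2 was not called. The source of these reads in that library was not tested.

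**Figure D3:**
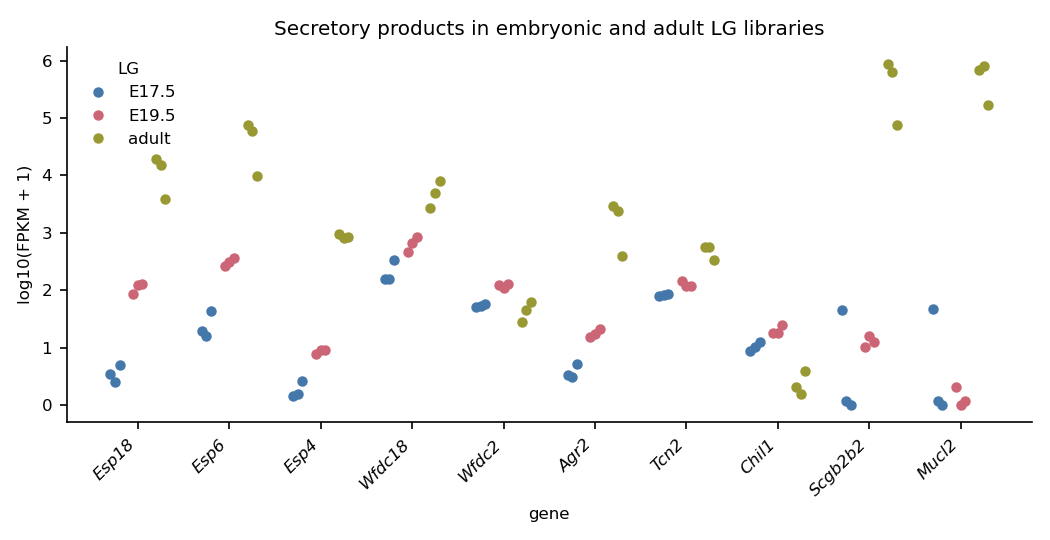
Points are single libraries of E17.5, E19.5 and adult LG on the log10(FPKM + 1) scale for 10 secretory products. Esp18, Esp6, Esp4 and Agr2 step up at E19.5 and again in the adult, whereas Scgb2b2 and Mucl2 are high in the embryo in E17.5 replicate 1.

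Few genes of the general secretory machinery changed. Of 27 tested genes of the endoplasmic reticulum, Sec11c, a signal peptidase subunit, was the 1 called, from 14.3, 17.8 and 16.4 FPKM to 30.9, 34.0 and 42.7 FPKM (1.09 ± 0.14). That share is under the 7.71% called higher among all genes. The chaperone Hspa5 was 640, 617 and 520 FPKM and then 430, 590 and 665 FPKM, with overlapping stages. Of 7 secretory lineage factors tested, Foxi1, the transcription factor of ionocytes, was called. It was listed at 0, 0 and 0.212 FPKM at E17.5 and at 5.05, 4.15 and 3.19 FPKM at E19.5 (2.25 ± 0.17), and it passed the filter through its E19.5 values. Creb3l4, a transmembrane factor of secretory cells picked out after its values were seen, went from 8.19, 6.55 and 7.89 FPKM to 35.3, 32.5 and 35.1 FPKM (2.05 ± 0.10). Atp6v1b1, a proton pump subunit that ionocytes and intercalated cells use, went from 4.31, 5.26 and 9.30 FPKM to 37.3, 35.8 and 40.9 FPKM. Of the 9 tested ionocyte and intercalated cell genes, a list added after seeing values, 2 were higher and 1 lower. The lower was Slc4a1, which is counted among the erythroid genes too. Without E17.5 replicate 3, 4 were higher and 1 lower, with limma-voom 4 and 2, and without E19.5 replicate 1, 2 and 2. Of 13 tested tuft cell genes, also added, 4 were higher, among them Pou2f3, Gng13 and Ltc4s, and 0 lower, while the tuft cell channel Trpm5 was 20.7, 17.8 and 13.3 FPKM and then 13.7, 10.6 and 11.1 FPKM and was not called. The tuft cell genes called higher were 2 without E17.5 replicate 1 or 2 or E19.5 replicate 2, and limma-voom called 5 higher and 2 lower.

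Epithelial genes rose in 9 of 23 tested and fell in 0 (median 0.28). Krt18, a keratin of simple epithelia, was 198, 196 and 294 FPKM and then 594, 690 and 803 FPKM (1.61 ± 0.19). Cldn10, a tight junction claudin, was 11.4, 10.5 and 15.6 FPKM and then 32.8, 31.6 and 40.4 FPKM (1.42 ± 0.16). Krt17 and Cldn8 rose by 1.29 ± 0.13 and 1.27 ± 0.25. The pan-epithelial cadherin Cdh1 was 132, 141 and 178 FPKM and then 164, 161 and 147 FPKM and was not called. Without E17.5 replicate 1, E17.5 replicate 2, E19.5 replicate 2 or E19.5 replicate 3, 5 of the 23 were called.

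Ion transport genes, which set tear fluid, rose in 8 of 25 tested and fell in 1, the latter near the 4.67% of all genes. Atp2a3, which fills calcium stores in secretory cells, was 10.8, 13.2 and 16.6 FPKM and then 88.7, 78.6 and 82.5 FPKM (2.55 ± 0.15). Chrm3, the muscarinic receptor that drives tear secretion, was 3.001, 4.61 and 4.92 FPKM and then 13.1, 11.3 and 9.13 FPKM (1.24 ± 0.19). Kcnma1, a calcium-gated potassium channel, rose by 1.08 ± 0.14. The related pump Atp2a2 was the member called lower (-0.47 ± 0.09). Without E19.5 replicate 2, 2 members were called higher, without E17.5 replicate 1 or 2, 3, and without E19.5 replicate 3, 4.

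Contractile genes of myoepithelium and smooth muscle were higher in 4 of 15 tested, with a list median of 0.03. Acta2 was 139, 156 and 296 FPKM and then 1007, 1040 and 1093 FPKM (2.48 ± 0.27), and the other 3 were Cnn1 (1.17 ± 0.10), Actg2 (0.99 ± 0.19) and Myl9 (0.98 ± 0.18). Actg1, the cytoplasmic actin with the highest level in the list, was 1324, 1174 and 1283 FPKM and then 1288, 1198 and 1192 FPKM. Leaving out E17.5 replicate 1 or 2 or E19.5 replicate 2 left 2 called.

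Interferon response genes had the highest share of calls of any list with at least 8 tested members. These genes are switched on when type I or type II interferon activates STAT and IRF factors, which bind a short element, the ISRE, in their promoters. Of 42 symbols, 23 were tested, and 21 of the 23 were higher and 0 lower (median 1.30, against 7.71% called higher among all genes). With no filter on low values, 18 of 38 members were higher and 0 lower (median 0.78), against 785 higher of 38314 genes. Gbp3 was 1.34, 1.27 and 1.72 FPKM and then 15.4, 9.98 and 17.02 FPKM (2.60 ± 0.20, limma adjusted p = 0.00277). Usp18, the protease that removes ISG15, was 0.737, 0.744 and 0.627 FPKM and then 8.16, 4.66 and 7.31 FPKM (2.15 ± 0.19). Bst2, tetherin, was the most abundant, at 45.5, 44.5 and 43.3 FPKM and then 164, 174 and 230 FPKM (2.05 ± 0.13). Ifit1 was 0.484, 0.234 and 0.235 FPKM and then 5.86, 2.55 and 7.05 FPKM (2.15 ± 0.30). E19.5 lay above E17.5 without overlap in 22 of the 23, against 20.4% of all genes. In these 4 genes E17.5 replicate 3 was not the high library as it was for the gland products, except in Gbp3. The members not called were Ifi27 (0.17 ± 0.17) and Oasl2 (0.36 ± 0.13). Between 16 and 20 members were called when 1 library was left out.

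**Figure D4:**
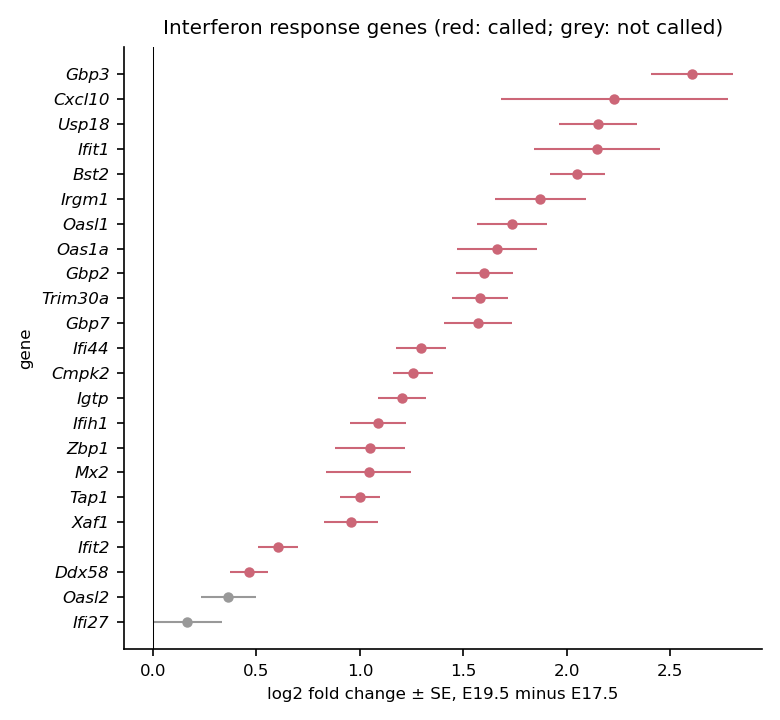
Points are log2 fold changes (E19.5 minus E17.5, on log2(FPKM + 1)) of the 23 tested interferon response genes and bars are SEs. All 23 lie above 0, from Ifi27 at 0.17 to Gbp3 at 2.60, and red marks the 21 called.

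The promoters of these genes were searched for the ISRE, spelled GAAA, any 2 bases and GAAA and read on both strands. The search used RefSeq windows of 300 bases (250 before and 50 after the start, GRCm38.p6). A window was found for 18 of the 21 genes that rose, and 12 of the 18 (66.7%) held the letters, against 1079 of 27025 genes with a window (3.99%). Of all tested members with a window, called or not, 12 of 19 (63.2%) held them. The list is made of interferon response genes, so the share describes the list and not the rise. A match is a description of these letters and not a test of binding. The 150 bases before the start are shown for 4 members that hold it, with the element in capitals, each read 5′ to 3′ along the gene's strand.

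Gbp3 (chr3:142559894-142560043, plus strand), where 2 matches overlap: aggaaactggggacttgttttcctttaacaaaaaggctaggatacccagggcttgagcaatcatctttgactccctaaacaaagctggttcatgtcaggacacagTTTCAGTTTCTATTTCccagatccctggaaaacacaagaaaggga
Ifit1 (chr19:34640739-34640888, plus strand), with 2 separate matches: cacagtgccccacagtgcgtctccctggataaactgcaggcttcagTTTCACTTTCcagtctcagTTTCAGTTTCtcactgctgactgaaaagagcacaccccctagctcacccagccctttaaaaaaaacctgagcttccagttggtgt
Igtp (chr11:58199406-58199555, plus strand), with 1 match: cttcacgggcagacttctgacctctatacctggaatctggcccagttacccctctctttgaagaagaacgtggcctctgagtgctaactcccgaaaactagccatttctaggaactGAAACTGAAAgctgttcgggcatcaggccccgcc
Oas1a (chr5:120907526-120907675, minus strand), where 2 matches overlap: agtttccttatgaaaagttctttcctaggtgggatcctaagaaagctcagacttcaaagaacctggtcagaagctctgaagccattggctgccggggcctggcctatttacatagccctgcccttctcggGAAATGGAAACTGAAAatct

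Antigen presentation genes that interferon also induces were higher in 5 of 12 tested and lower in 0. B2m, the light chain of MHC class I, was 339, 363 and 376 FPKM and then 669, 739 and 963 FPKM (1.12 ± 0.15), and the peptide transporters Tap1 and Tap2 rose by 1.00 ± 0.10 and 1.02 ± 0.09. The class II invariant chain Cd74 was 14.04, 15.01 and 18.17 FPKM and then 19.3, 12.9 and 15.9 FPKM, with overlapping stages, beside 592 to 1206 FPKM in the adult. Leaving out any library but E19.5 replicate 1 left 3 of the 12 called.

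Chemokine genes were higher in 16 of 24 tested and lower in 1, which is near the 4.67% of all genes (median 0.99). With no filter on low values, 12 of 34 members were higher and 1 lower (median 0.63). Besides Cxcl17 and Ccl7, Ccl12 was 5.27, 4.64 and 4.89 FPKM and then 18.3, 31.5 and 41.5 FPKM (2.33 ± 0.27). Ccl2 was 0.113, 0.0912 and 0 FPKM and then 2.11, 4.10 and 4.93 FPKM (2.09 ± 0.24). Cxcl10, counted among the interferon genes too, was 7.25, 5.11 and 9.16 FPKM and then 14.4, 45.8 and 72.0 FPKM (2.23 ± 0.55). In these 3 and in Ccl7, E19.5 replicate 1 was the lowest library of its stage. Cxcl14 was the member called lower, at 23.2, 23.4 and 15.3 FPKM and then 9.58, 7.79 and 8.44 FPKM (-1.15 ± 0.17). Without E17.5 replicate 1 or 2 or E19.5 replicate 2, 9 were called higher, and without E19.5 replicate 3, 10.

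Macrophage markers were higher in 13 of 19 tested and lower in 0 (median 0.81), and their summed level was 449 to 528 FPKM at E17.5 and 882 to 1093 FPKM at E19.5. Folr2, a marker of tissue-resident macrophages, was 1.33, 1.48 and 2.02 FPKM and then 11.9, 7.84 and 9.65 FPKM (2.04 ± 0.17). Pf4 and C1qa rose by 1.55 ± 0.14 and 1.46 ± 0.12. Lyve1, which stands in the endothelial list too, was 22.1, 24.8 and 19.52 FPKM and then 70.3, 62.9 and 59.8 FPKM. Tyrobp, the signalling adaptor with the highest level, was 83.2, 94.4 and 101 FPKM and then 115, 105 and 153 FPKM and was not called. Complement genes were higher in 9 of 17, led by C1ra (1.60 ± 0.13) and C1s1 (1.48 ± 0.11), the proteases of the first component, and in 5 without E17.5 replicate 1 or 2.

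Mast cell genes split. Mcpt4, a chymase, was 158, 163 and 246 FPKM and then 1047, 800 and 1005 FPKM (2.35 ± 0.20). Cma1 and Cpa3, proteases of the same granules, were high in both stages and not called, Cma1 at 815, 886 and 982 FPKM and then 1109, 995 and 1466 FPKM. Mrgprb1 and Mrgprb2, receptors of connective tissue mast cells from a list added after seeing values, rose by 2.09 ± 0.17 and 1.35 ± 0.16.

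Markers of other tissues moved as well, and their part in the results above was not tested. Endothelial markers were higher in 6 of 18 tested, with Cldn5 at 0.86 ± 0.11. The largest of their changes was in Lyve1 (1.5), which is counted among the macrophage markers too. Adipocyte markers were higher in 6 of 12, with Fabp4 at 64.4, 64.4 and 62.1 FPKM and then 106, 110 and 138 FPKM. Leaving out E17.5 replicate 1 or 2 left 2 endothelial markers and 1 adipocyte marker called, E19.5 replicate 2 left 2 and 2, and E19.5 replicate 3 left 3 and 3. Epidermal markers were higher in 2 of 7, Calml3 and Krt13, in 0 without E17.5 replicate 2 or E19.5 replicate 3 and in 1 without any other library. Their summed level was 22.1 to 39.2 FPKM at E17.5 and 64.5 to 70.8 FPKM at E19.5. Skeletal muscle markers summed to 18.5 to 59.6 FPKM at E17.5 and 13.7 to 18.96 FPKM at E19.5, with a median of -0.57, and 1 of 12 was called lower. Without E17.5 replicate 2 or E19.5 replicate 2 the count was 0, without E17.5 replicate 3 it was 3, and limma-voom called 3 lower, or 8 with a replicate block.

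Immediate early and heat shock genes, which answer to many stimuli within minutes, were higher in 10 of 22 tested. Of the 22, 1 was lower, near the 4.67% of all genes. Fos was 270, 211 and 249 FPKM and then 402, 618 and 706 FPKM (1.21 ± 0.22). Zfp36, an mRNA-decay factor, was 83.4, 65.1 and 87.2 FPKM and then 170, 283 and 322 FPKM (1.66 ± 0.25). E19.5 replicate 1 was the lowest of its stage in both, as it was in the 4 chemokines above. Without E17.5 replicate 2 or E19.5 replicate 2, 4 members were called higher, without E17.5 replicate 1 or E19.5 replicate 3, 5, without E17.5 replicate 3, 6, and without E19.5 replicate 1, 13. Glucocorticoid-responsive genes were higher in 5 of 16, among them Nfkbia and Sgk1, and Fkbp5, a sensitive target, was not called (-0.13 ± 0.10). Without E19.5 replicate 2 or E17.5 replicate 1 or 2, 1 of the 16 was called higher, and without E17.5 replicate 3 or E19.5 replicate 3, 2.

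In the list of imprinted and other fetal growth genes, 12 of 22 tested were lower and 0 higher, with a median of -0.52. Hmga2 and the Igf2bp genes in it are not imprinted. Hmga2, a chromatin protein of growing embryos at chr10:120361275-120476469 (minus strand, GRCm38), was 12.1, 11.95 and 10.1 FPKM and then 3.43, 3.33 and 3.61 FPKM (-1.47 ± 0.10, limma adjusted p = 0.0025). Rian and Meg3, noncoding RNAs of an imprinted locus of chromosome 12, fell by 1.16 and 0.66 on the log2 scale. Igf2bp1, Igf2bp2 and Igf2bp3, which bind fetal mRNAs, were lower by -0.69 ± 0.11, -0.50 ± 0.09 and -0.58 ± 0.10. The summed level of the list was 3780 to 4851 FPKM at E17.5 and 4112 to 4703 FPKM at E19.5, with overlapping stages. The most abundant members, H19 and Igf2, were not called, and Igf2 was 716, 612 and 566 FPKM and then 695, 588 and 634 FPKM. In the adult, Igf2 was at 1.23 to 4.51 FPKM. Without E17.5 replicate 1 or 2 or E19.5 replicate 2, 2 members were called lower, and without E19.5 replicate 3, 6.

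Erythroid genes were lower in 5 of 10 tested (median -1.21). Hbb-y, Hba-x, Hbb-bh1 and Slc4a1 were among them, and Slc4a1, the anion exchanger of red cells, was 9.72, 8.15 and 9.71 FPKM and then 2.41, 3.21 and 3.39 FPKM (-1.35 ± 0.13). Their summed level was 65.8 to 115 FPKM at E17.5 and 27.2 to 31.1 FPKM at E19.5. Nerve and Schwann cell markers were lower in 4 of 14 and higher in 1, the latter near the 7.71% of all genes. Among the lower, Ngfr was 53.2, 53.8 and 45.3 FPKM and then 26.9, 22.4 and 19.9 FPKM (-1.11 ± 0.13). Without E17.5 replicate 1 or 2 or E19.5 replicate 2, 3 erythroid genes and 1 nerve marker were called lower, and without E19.5 replicate 3, 2 nerve markers.

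Some factors of LG development were lower, and few FGF10 axis genes were called. Of 12 developmental transcription factors tested, 3 were lower and 0 higher (median -0.46), and their summed level was 543 to 591 FPKM at E17.5 and 390 to 440.4 FPKM at E19.5. Etv5, an ETS factor that answers to FGF, was 182, 195 and 185 FPKM and then 115, 101 and 95.2 FPKM (-0.85 ± 0.09), and Alx4 and Meis1 fell by 0.78 and 0.48 on the log2 scale. Fgf10 itself was 90.7, 69.8 and 42.9 FPKM and then 61.8, 37.8 and 37.3 FPKM, with overlapping stages, and was not called. Of 14 FGF10 axis genes, 1 was higher, near the 7.71% of all genes, and 2 were lower, against 4.67% of all genes (median -0.20). Etv5 was among the lower. The developmental factors called lower were 1 without E17.5 replicate 1 or 2 or E19.5 replicate 2 or 3 and 5 without E17.5 replicate 3, and in the first 4 of these fits 1 FGF10 axis gene was called lower. Limma-voom called 6 of the 12 and 5 of the 14 lower.

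Wnt pathway genes moved both ways, with 5 of 33 tested higher and 7 lower. The receptors Ror2, Fzd2 and Fzd3 were lower (-0.70 ± 0.09, -0.43 ± 0.10 and -0.54 ± 0.08), as was Lgr5, a receptor of stem cells (-1.06 ± 0.18). Sostdc1, an inhibitor of Wnt and BMP, was 16.1, 20.4 and 24.6 FPKM and then 50.7, 45.7 and 40.8 FPKM (1.14 ± 0.16), and Wnt2 and Wnt10a rose by 0.55 ± 0.07 and 0.77 ± 0.14. Hedgehog genes were lower in 3 of 8 (Smo, Gli2 and Cdon), and BMP and TGF beta genes were higher in 2 and lower in 4 of 25, with Grem1 and Gdf10 among the lower (-0.93 ± 0.14 and -0.89 ± 0.17). The share of BMP and TGF beta genes called higher was near the 7.71% of all genes. Without E17.5 replicate 1 the Wnt genes called lower were 3, without E17.5 replicate 2 or E19.5 replicate 2, 2, and without E19.5 replicate 3, 3, and in these 4 fits 0 hedgehog genes were called. The Wnt genes called higher were 2 or 3 without any 1 library. Of the BMP and TGF beta genes, 0 were called without E17.5 replicate 1, 1 was lower without E17.5 replicate 2, and 1 was higher and 1 lower without E19.5 replicate 2 or 3, while limma-voom called 2 higher and 7 lower.

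In the list of interstitial collagens, which also holds Dpt, not itself a collagen, 2 of 29 genes were higher, near the 7.71% of all genes. Of the same genes 5 were lower, and limma-voom called 2 higher and 15 lower. Besides Col2a1, Col8a2 was 49.2, 48.7 and 29.6 FPKM and then 17.6, 12.96 and 13.9 FPKM (-1.44 ± 0.22), while the dermatopontin gene Dpt was 135, 184 and 159 FPKM and then 341, 309 and 323 FPKM (1.03 ± 0.12). The 2 most abundant, Col3a1 and Col1a1, were between 1844 and 2542 FPKM in every embryonic library and were not called. With any 1 library left out, 1 gene of this list was called higher, and it was Dpt. The members called lower were 1 without E17.5 replicate 1 or 2 or E19.5 replicate 2, 2 without E19.5 replicate 3 and 9 without E17.5 replicate 3. Cartilage and bone markers other than Col2a1 and Sox6 were not called, and Col9a1 was 202, 214 and 245 FPKM and then 185, 211 and 229 FPKM. Matrix proteases were higher in 4 of 24 and lower in 5, with Mmp3 at 4.92, 5.82 and 10.4 FPKM and then 29.8, 25.4 and 26.9 FPKM (1.87 ± 0.24). The proteases called lower were 1 without E17.5 replicate 1 or 2 or E19.5 replicate 2 and 2 without E19.5 replicate 3, those called higher were 2 or 3 without any 1 library, and limma-voom called 3 higher and 10 lower.

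Few cell division genes were called. By limma, 0 of 37 S phase genes were called in either direction. Of 32 mitosis genes, 1, Anln, was lower (-0.42 ± 0.09), which is under the 4.67% of all genes. Limma-voom called 5 of each lower, near the share of all genes in that fit (1681 of 13876). Pcna was 368, 377 and 406 FPKM and then 293, 384 and 477 FPKM. Cdkn1b, an inhibitor of cyclin-dependent kinases, was 52.0, 50.1 and 54.6 FPKM and then 78.4, 89.3 and 79.3 FPKM (0.65 ± 0.08). Lipid synthesis genes were lower in 4 of 21 and higher in 0, among them Elovl6, a fatty acid elongase, at 38.3, 37.3 and 34.9 FPKM and then 24.7, 22.9 and 21.4 FPKM (-0.66 ± 0.08), and the desaturases Fads1 and Fads2. Those called lower were 2 without E17.5 replicate 1 or 2 or E19.5 replicate 2 or 3, and 7 without E17.5 replicate 3, and limma-voom called 12 lower. Markers of the Harderian and meibomian lipid glands, a list that shares Fads2 with it, were lower in 2 and higher in 1 of 12. The share higher was near the 7.71% of all genes. The summed level of these markers was 248 to 272 FPKM at E17.5 and 190.3 to 200.2 FPKM at E19.5. In the same 4 fits 1 of these markers was lower, without E17.5 replicate 3, 3, and limma-voom called 7 lower.

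**Figure D5:**
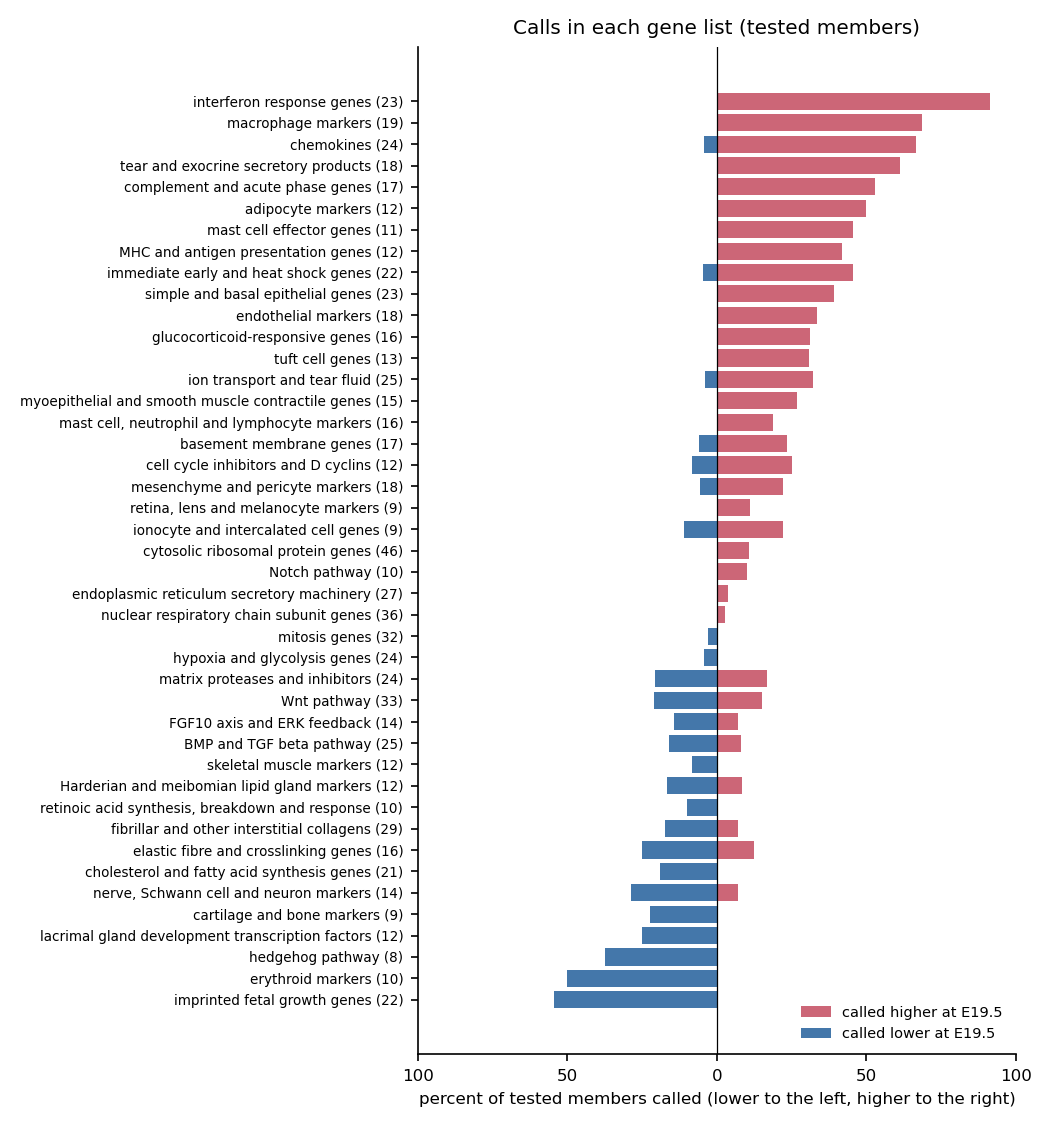
Bars give the percent of tested members (number in brackets) called higher (red, right) and lower (blue, left) at E19.5 in each list with at least 8 tested members and 1 call. Interferon response genes (21 of 23) lead the rises, against 7.71% of all genes. The list labelled imprinted fetal growth genes, which also holds genes that are not imprinted, leads the falls (12 of 22), against 4.67%.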

How the data were processed

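RNA sequencing libraries of LG were analysed, 3 each at E17.5 and E19.5, with 3 adult libraries for side-by-side values. The authors used the NEBNext Ultra kit, 150-bp paired-end reads, CASAVA basecalls and featureCounts 1.5.0-p3, and the submitters' processing notes also name HISAT2 2.0.5 and NCBIM37. The authors deposited 1 value per gene, read here as FPKM from its steps and its dependence on gene length. How it was made is not given in the sources used here. Symbols and coordinates came from GENCODE M21 (GRCm38) by gene ID, and 52403 of 52636 matched.

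Values were tested as log2(FPKM + 1) with limma 3.58.1 (trend, R 4.3.3), for genes of mean at least 0.5 FPKM, with Benjamini-Hochberg adjustment at 0.05. FPKM times exon length gave whole reads (within 0.01, up to 1000 reads) for 93.3% to 93.6% of values. Named genes were the 15 largest rises and falls with a mean of at least 1 FPKM and stages that did not overlap, and in each list the called members and the most abundant, given in part for lists of few calls. Members and lists were chosen with earlier results of these data known. The test was tried on simulated data. Over all genes it called more unchanged genes than the threshold allows, nearly all of few reads, so a fit of genes with a mean of at least 10 reads was added, in which the share of such calls was near the threshold. Some genes counted in the lists are not reported here by name.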

Additional observations from a re-analysis of the deposited data

How the results depend on the processing

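The count higher at E19.5 was 785 with no filter on low values, 288 with all 9 tissue libraries and 404 to 1144 with 1 library left out. The count lower was 384, 176 and 148 to 689 in the same fits, and 1681 with limma-voom. The lowest counts came without E17.5 replicate 1 (404 and 148), E17.5 replicate 2 (422 and 156), E19.5 replicate 2 (483 and 181) and E19.5 replicate 3 (664 and 296). Fits without a library have fewer samples, and the cause of the other shifts was not tested. Replicate numbers are shared between the stages, but same-numbered libraries deviated together little (r = 0.06, 0.02 and 0.03), so they were not taken as pairs. With a replicate block the counts were 882 and 430, and limma-voom with the block called 1197 and 1844. Other settings stayed within 1.5 times. With at least 10 reads, an alternative chosen after seeing the data as was leaving out genes under 200 bases, 1442 were higher and 979 lower. The alternatives were followed for 266 called genes: those of the largest changes, the called members of every list and genes picked for the text. Not all of them are named here. None of the 266 reversed in any alternative, and 108 kept their call in each of the 6 fits without 1 library. Among genes not called, signs turned for Igf2 (-0.0188 with median-of-ratios scaling, -0.0918 with limma-voom, -0.0929 with voom and the replicate block), Cd74 (-0.0204, -0.0961 and -0.0931 in the same fits), Col3a1 (-0.0428 and -0.0420 with voom without and with the block), Cdh1 (-0.0355 and -0.0365) and Scgb2b2 (-0.4025 with voom and the block). With 1 library left out, the ranges were -0.0538 to 0.1152 for Igf2, -0.1172 to 0.1543 for Cd74, -0.0380 to 0.1362 for Col3a1, -0.0102 to 0.2033 for Cdh1, -0.0890 to 0.0430 for Col1a1, -0.1924 to 0.158 for Pcna, -0.2285 to 0.0857 for Hspa5, 0.7961 to 3.561 for Scgb2b2, which was called without E17.5 replicate 1, and -2.444 to 0.3322 for Mucl2. Genes on few reads and genes listed at 0 limit what these libraries show.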
